A study of Homo sapiens with 18 samples.

Results

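RNA-seq of OVCAR3-KRAB cells carrying sgXIST7 was compared with that of cells carrying the control guide sgCtl, both kept in normoxia. OVCAR3 cells were established from a human ovarian carcinoma and are widely used. The name is taken from the labels, and the identity of the cells was not tested here. Several markers of ovarian carcinoma cells were at or near 0 counts, as given below. The KRAB derivative expresses dCas9-KRAB, a Cas9 without nuclease activity that is fused to a repressor domain and was introduced by lentivirus, so the control cells carry it too. The comparison takes 6 of the 18 libraries in the series, 3 replicates with sgXIST7 and 3 with sgCtl, chosen by their labels alone, and covers all 28277 genes listed. All 6 groups came from monoclonal lines grown in DMEM with 10% serum. The sgXIST lines had been selected for loss of XIST, and the sources used here do not give how many clones stand behind the 3 libraries of a group, so the guide and the clone cannot be told apart. The other libraries are sgXIST9 in normoxia and all 3 guides after 24 h at 1% oxygen (hypoxia). They are used below only as a second set of libraries of the same guide and as a direct contrast between both KD lines.

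XIST is the long noncoding RNA of the X-inactivation centre. It is transcribed from one X chromosome in female cells, spreads over that chromosome and recruits silencing complexes to it. Once silencing is set, other layers such as DNA methylation help to hold it. In CRISPR interference, a guide brings dCas9-KRAB to a promoter, where the KRAB domain recruits factors that lay down repressive chromatin.

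The sgXIST7 site is shown because the guide was designed to target the XIST promoter. The later comparisons are between lines in which guide and clone cannot be told apart. On the RefSeq promoter of XIST (GRCh38.p14, minus strand, chrX:73852665-73852964, which spans 250 bases before to 50 bases after the start), the protospacer is in capitals, written as the strand that pairs with the guide.
XIST promoter: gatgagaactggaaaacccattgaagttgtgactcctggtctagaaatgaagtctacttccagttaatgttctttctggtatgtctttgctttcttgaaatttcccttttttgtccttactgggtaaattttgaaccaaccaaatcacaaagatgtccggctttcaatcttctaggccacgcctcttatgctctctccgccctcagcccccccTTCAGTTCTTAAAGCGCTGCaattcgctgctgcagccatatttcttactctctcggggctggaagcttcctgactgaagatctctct
The site occupies bases 214 to 233 of this window and ends 17 bases before the RefSeq start. By the deposited annotation it lies inside the first bases of XIST. Read on the plus strand it is followed by the PAM GGG. The last 12 bases of the protospacer next to an NGG PAM were found on either strand in 1 of 27305 RefSeq promoters (0.0037%), that of XIST. The last 10 bases were found in 4 promoters (0.015%), those of XIST, ECM2, LINC00930 and LOC107986326, and of these genes only XIST was expressed highly enough to be tested.

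Genome-wide, 2 further sites had 3 differences from the sgXIST7 site. One lies in COPS5, which codes for a subunit of the COP9 signalosome and which was not called (log2 fold change −0.20, adjusted p = 0.25, edgeR). The other lies in LINGO2 on the plus strand at chr9:28799539-28799558, next to the PAM AGG, and its 3 differing bases are in capitals.
sgXIST7 site at XIST: gcagcgctttaagaactgaa
Site in LINGO2: gcagGgTtttaagaactgaG
LINGO2 and MIR876, whose start is the nearest at 64158 bases, had 0 counts in all 6 libraries.

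Total counts ranged from 11794375 to 16994842 in the sgCtl libraries and from 16151046 to 22686720 in the sgXIST7 libraries. RN7SL1 took the most counts in each library. Replicate 2 of both groups stood apart from its own group along the axis of the second largest variance, and calls that depend on a single library are named with the result. Of 10 markers of ovarian carcinoma cells, 5 were expressed highly enough to be tested. EPCAM was present at 169 to 219 CPM (counts scaled to a TMM-adjusted library size of 1e+06), KRT18, KRT8 and CCNE1 were well counted, and PAX8 had 18 to 46 counts. WT1, SOX17, MUC16, MECOM and FOLR1 had at most 5, 2, 0, 3 and 1 counts in a library. Of 12 immune markers, 6 were at 0 and their sum stayed between 0.303 and 0.696 CPM in every library. Of 12 fibroblast markers, COL1A2, COL1A1 and FBLN1 were up-regulated, none was down-regulated by edgeR and PDGFRB was at 0 throughout. DCN, or decorin, had 3, 5 and 11 counts in sgCtl and 1, 1 and 0 in sgXIST7 (−3.46, adjusted p = 0.021, edgeR), and LUM, or lumican, had at most 4 counts in a library. COL1A1 and FBLN1 lost their calls without sgCtl replicate 3 or sgXIST7 replicate 2, and FBLN1 also without sgCtl replicate 2. The summed level of the 12 was 942 to 989 CPM in sgCtl and 1133 to 1208 CPM in sgXIST7, most of it COL3A1. The 13 neuronal markers summed to 189 to 213 CPM in sgCtl and 290 to 337 CPM in sgXIST7, most of it TUBB3, with MAP2 up-regulated, SYP not called (−0.91, adjusted p = 0.01, edgeR) and 5 markers at 0. The 12 endothelial markers summed to 15.5 to 19.3 CPM in sgCtl and 23.3 to 30.6 CPM in sgXIST7, most of it EGFL7, and none was called by edgeR. The part of these markers in the results below was not tested. In bulk RNA, fewer cells of a kind and less RNA per cell cannot be told apart.

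XIST itself fell from 329, 867 and 242 CPM in sgCtl to 0.216, 0.222 and 0.0436 CPM in sgXIST7, or 5, 4 and 1 counts. The groups were far apart, with replicate 2 of sgCtl well above the other 2. The ratio of the groups was 2878, with an exact 95% counting interval of 1565 to 6002. Adjusted p was 6.3e-09 (edgeR), and the two-sided exact permutation test gave p = 0.1, the smallest that 3 against 3 libraries allow. Because the sgXIST lines had been selected for loss of XIST, a fall was set in advance. The tests are therefore no independent support for an effect of the guide, and the values describe the size of the fall. XIST remained called in each fit that left out a library, with log2 fold changes from −11.85 to −10.77.

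Of 15 genes listed around XIST, 12 were tested, and XIST and JPX were the only ones called. JPX, a noncoding RNA gene next to XIST that is known as an activator of it, had 12.3, 10.2 and 11.9 CPM in sgCtl and 5.15, 3.39 and 4.49 CPM in sgXIST7. Its levels did not overlap, and it was down-regulated in normoxia (log2 fold change −1.39, SE 0.25, adjusted p = 4.7e-04, edgeR) and in the hypoxia libraries (−1.09, adjusted p = 0.0022). The sgXIST9 libraries had 13.1 to 14.8 CPM of JPX, and sgXIST7 was lower than sgXIST9 in the direct contrast (−1.67, adjusted p = 1.9e-04, edgeR). FTX, another noncoding gene of the centre, overlapped between the groups (0.19, adjusted p = 0.58). RLIM, a ubiquitin ligase that promotes XIST expression, was lower by less than the threshold (−0.37, adjusted p = 0.0046, edgeR). TSIX, antisense to XIST, had 9, 10 and 2 counts in sgCtl and 0, 1 and 0 in sgXIST7 and was not tested. Its reads cannot be told apart from those of XIST unless counting used the strand, which the sources used here do not state. None of 22 tested genes known to escape X inactivation and none of 17 tested protein partners of XIST was called by edgeR in either direction (median log2 fold changes −0.08 and −0.11). RPS4X, an escape gene that codes for a ribosomal protein, had 829, 732 and 852 CPM in sgCtl and 461, 382 and 466 CPM in sgXIST7. These levels did not overlap, but the log2 fold change of −0.88 (adjusted p = 4.4e-05, edgeR) was inside the threshold of 1. Against sgXIST9, with 896 to 932 CPM, RPS4X passed the threshold (−1.07, adjusted p = 1.4e-05, edgeR).

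Across the transcriptome, 698 genes were up-regulated, or 4.67% of the 14938 tested, and 461 were down-regulated, or 3.09%, at an adjusted p below 0.01 and a log2 fold change beyond 1 (quasi-likelihood test of edgeR, 1 fit of all 18 libraries). The sgCtl and sgXIST7 libraries did not overlap in CPM for any of these genes, which the thresholds for a call largely bring about. By the fitted value, 106 up-regulated and 93 down-regulated genes were beyond 4 on the log2 scale. Of the up-regulated genes, 101 had at most 3 counts in every sgCtl library and 19 had none. Of the down-regulated genes, 86 had at most 3 counts in every sgXIST7 library and 29 had none. The up-regulated genes together rose from 9306 to 37333 CPM and the down-regulated genes together fell from 16693 to 5399 CPM. A further 856 genes had an adjusted p below 0.01 with a change of at most 1 on the log2 scale. The median log2 fold change over all genes tested was −0.01.

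The largest changes are given for called genes that averaged 100 or more counts per library, so that sharper falls or rises of less counted genes are not among them. COL12A1 (chromosome 6, 75084326 to 75206053), which codes for a collagen that links fibrils, had 16.7, 17.2 and 20.6 CPM in sgCtl and 4830, 5584 and 4427 CPM in sgXIST7. No sgXIST7 library came near a control library, and COL12A1 was the most abundant up-regulated gene (log2 fold change 8.09, SE 0.31, adjusted p = 5.9e-12, edgeR). ALPK2 (chromosome 18, 58481250 to 58629091), an alpha-type protein kinase gene, had 0 counts in all 3 sgCtl libraries and 522, 516 and 622 counts in sgXIST7, at least 129-fold higher against 3 counts per library. NR3C1, which codes for the glucocorticoid receptor, rose from 0.335, 0.309 and 1.32 CPM to 134, 162 and 131 CPM (log2 fold change 7.66, SE 0.41, adjusted p = 6.3e-10, edgeR).

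CDH10, a cadherin best known from neurons, had 0.134, 0.232 and 0.459 CPM in sgCtl and 128, 101 and 117 CPM after KD (8.62, adjusted p = 3.8e-11, edgeR). COL1A2, which codes for a chain of type I collagen, rose from 0.403, 0.0773 and 0.344 CPM to 67.8, 117 and 105 CPM (8.37, adjusted p = 2.6e-08, edgeR). PDGFC, a growth factor of the PDGF family, rose from 0.939, 0.851 and 1.32 CPM to 137, 125 and 122 CPM (6.92, SE 0.14, adjusted p = 1.4e-15, edgeR). For each of these genes the lowest sgXIST7 library was far above the highest sgCtl library. LHX9 (chromosome 1, 197912505 to 197935478), a homeobox gene of the early gonad, rose from 0.268, 0.0773 and 0.459 CPM to 52.1, 51.1 and 52.6 CPM (7.48, adjusted p = 6.9e-11, edgeR). S100B, a calcium-binding protein gene, had 0, 1 and 2 counts in sgCtl against 284, 200 and 284, a ratio of 181 with a counting interval of 61.6 to 879. BARX2, another homeobox gene, had 0, 1 and 0 counts in sgCtl against 212, 199 and 273, a ratio of 483 with a counting interval of 86.4 to 19105. INMT, a methyltransferase gene, had 0, 1 and 0 counts against 280, 175 and 262.

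**Figure D1:**
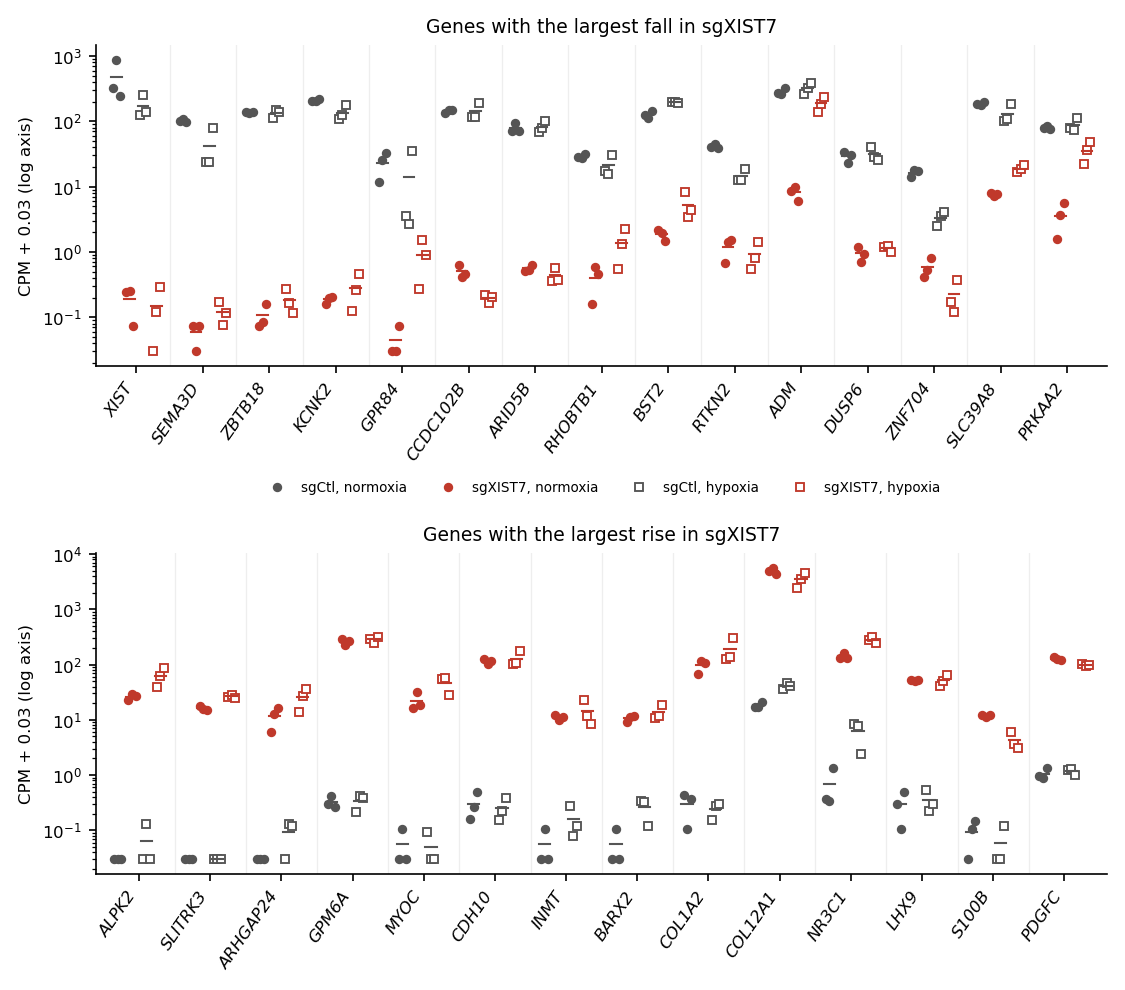
CPM with 0.03 added, on a log axis, in each library for genes with the largest fall (upper panel) and rise (lower panel) in sgXIST7 in normoxia among called genes that averaged 100 or more counts per library; each point is a library, filled circles are normoxia, open squares are hypoxia, and short lines are group means. The genes were chosen among those whose normoxia groups do not overlap, and ADM and PRKAA2 are the ones whose sgXIST7 hypoxia libraries come closest to the controls.

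Among the falls, SEMA3D (chromosome 7, 84995556 to 85121931), which codes for a secreted semaphorin, had 101, 108 and 99 CPM in sgCtl and 1, 0 and 1 counts in sgXIST7, a ratio of 3273 with a counting interval of 905 to 27032. ZBTB18 (chromosome 1, 244048939 to 244057478), a transcriptional repressor gene, had 138, 135 and 141 CPM in sgCtl and 1, 1 and 3 counts in sgXIST7, a ratio of 1776 with an interval of 760 to 5470. KCNK2, which codes for a two-pore potassium channel, had 207, 205 and 218 CPM in sgCtl and 3, 3 and 4 counts in sgXIST7. All 3 genes were therefore well expressed in each control library and at or near the detection limit after KD, with adjusted p of 1.5e-09, 1.6e-13 and 1.9e-12 (edgeR). ARID5B, which codes for a DNA-binding cofactor of a histone demethylase, fell from 70.2, 93.3 and 70.7 CPM to 0.476, 0.5 and 0.61 CPM (log2 fold change −7.18, adjusted p = 2.1e-12, edgeR). CCDC102B, a coiled-coil protein gene, fell from 135, 151 and 151 CPM to 0.605, 0.389 and 0.436 CPM (−8.22, adjusted p = 4.0e-13, edgeR). GPR84, a receptor for medium-chain fatty acids, varied among the controls, with 174, 329 and 570 counts against 0, 0 and 1. Signalling and transport genes were among the rest. DUSP6, a phosphatase that turns off ERK, fell from 33.4, 23 and 30.5 CPM to 1.17, 0.666 and 0.915 CPM (−4.95, adjusted p = 1.3e-10, edgeR). SLC39A8, a zinc and manganese importer gene, fell from 183, 178 and 198 CPM to 7.87, 7.22 and 7.58 CPM (−4.62, adjusted p = 1.6e-11, edgeR). PRKAA2, which codes for a catalytic subunit of AMPK, fell from 79.7, 85.8 and 76.1 CPM to 1.56, 3.61 and 5.53 CPM (−4.50, adjusted p = 1.1e-07, edgeR).

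Other abundant genes were also called. HIF1A (chromosome 14, 61695513 to 61748259), the oxygen-regulated subunit of the hypoxia-inducible factor, had 246, 241 and 249 CPM in sgCtl and 795, 692 and 783 CPM in sgXIST7 (log2 fold change 1.62, SE 0.09, adjusted p = 6.3e-10, edgeR). GJA1, which codes for the gap junction protein connexin 43, rose from 77.1, 33.9 and 13.9 CPM to 952, 788 and 981 CPM (4.45, SE 0.54, adjusted p = 1.0e-05, edgeR), with a wide spread among the controls. TIMP1, an inhibitor of matrix metalloproteases encoded on the X chromosome, rose from 419, 386 and 448 CPM to 1005, 1168 and 1360 CPM (adjusted p = 5.9e-07, edgeR). Each of these genes was already expressed in the control cells. EMP1 (1.29), TRPS1 (1.33) and DLG1 (1.06) were also up-regulated. Going down, FTL, the ferritin light chain, fell from 862, 904 and 1060 CPM to 338, 314 and 309 CPM (−1.56, adjusted p = 4.8e-07, edgeR). VMP1, an autophagy protein gene, fell by 1.61, PARD6B, a polarity gene, by 1.43, and S100A2, a calcium-binding protein gene, by 1.68 on the log2 scale. COPS8, another COP9 signalosome subunit, had a log2 fold change of −1.12 and lost its call without sgXIST7 replicate 2 (−0.99).

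The hypoxia libraries of the same guides share no library with the comparison above. Of the 698 genes up-regulated in normoxia, 469 (67.2%) were up-regulated again in hypoxia, where 1169 genes or 7.83% of all tested were, and 2 were down-regulated. Of the 461 genes down-regulated in normoxia, 294 (63.8%) were down-regulated again in hypoxia, where 924 genes or 6.19% of all tested were, and 3 were up-regulated. The repeated genes were 40.1% and 31.8% of the hypoxia calls. In sign alone, 660 of 698 and 435 of 461 genes went the same way. Genes that differed between both conditions in size included ADM and FOSL2. ADM, which codes for adrenomedullin and is a known hypoxia target, fell from 273, 263 and 325 CPM to 8.6, 9.89 and 5.93 CPM in normoxia (log2 fold change −5.14, adjusted p = 1.2e-09, edgeR). In hypoxia ADM was not called (−0.78, adjusted p = 0.015, edgeR). FOSL2, an AP-1 subunit, rose from 13.2, 10.1 and 5.68 CPM to 133, 119 and 110 CPM in normoxia (3.65, adjusted p = 4.2e-09, edgeR) and was not called in hypoxia (0.75, adjusted p = 0.0061). The difference between the conditions was not tested here for these genes, and the pair was picked with those values in view.

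**Figure D2:**
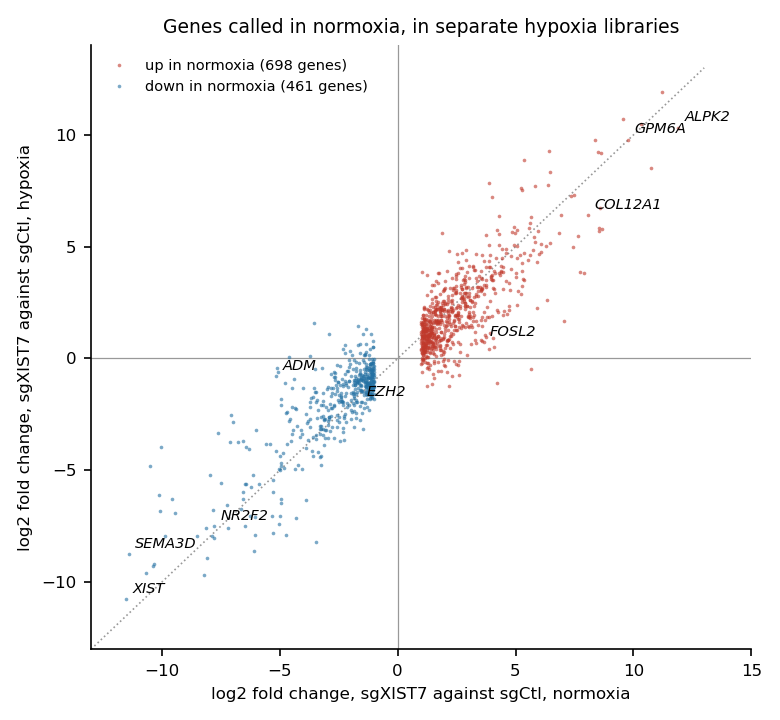
Log2 fold change of sgXIST7 against sgCtl in hypoxia (vertical axis) against that in normoxia (horizontal axis) for the 698 up-regulated (red) and 461 down-regulated (blue) genes of normoxia; each point is a gene and the dotted line marks equal change. Most points lie in the 2 quadrants of equal sign, and ADM lies at −5.14 on the normoxia axis and −0.78 on the hypoxia axis.

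Genes of sterol and fatty acid synthesis rose together. Of 24 tested, 11 were up-regulated and none was down-regulated by edgeR, and 23 of the 24 were higher. Their median log2 fold change was 0.96, against −0.01 over all genes, of which 4.67% were up-regulated. SCD, the desaturase that makes oleic acid, had 51.5, 64.9 and 40 CPM in sgCtl and 389, 621 and 385 CPM in sgXIST7 (3.16, SE 0.21, adjusted p = 7.7e-09, edgeR). FADS2, the first desaturase of polyunsaturated fatty acid synthesis, rose from 73.1, 70.4 and 80.4 CPM to 256, 282 and 252 CPM (1.82, adjusted p = 4.4e-06, edgeR). The 11 include both transcription factors that drive these genes. SREBF2, which acts mainly on cholesterol genes, rose from 20.9, 24.7 and 20.6 CPM to 43, 83 and 51.2 CPM (1.42, adjusted p = 2.8e-04, edgeR). SREBF1, which acts mainly on fatty acid genes, rose from 50, 51.5 and 45.6 CPM to 98.7, 156 and 95.7 CPM (1.25, adjusted p = 1.4e-05, edgeR), and its log2 fold change was 0.99 without sgXIST7 replicate 2. ACLY, which makes cytosolic acetyl-CoA, was up-regulated by 1.35, and the sterol reductase gene DHCR7 by 1.11. MVD, MVK and LSS, enzymes of the mevalonate and lanosterol steps, were called near the threshold. MVD lost the call without sgCtl replicate 2 or sgXIST7 replicate 2 (lowest value 0.97) and LSS without sgCtl replicate 2, sgCtl replicate 3 or sgXIST7 replicate 1 (lowest value 0.71). MVK lost it without any single library but sgCtl replicate 3 (lowest value 0.90) and with the replicate number as a block (1.03, adjusted p = 0.011, edgeR). FASN, fatty acid synthase, had 245, 330 and 253 CPM in sgCtl and 329, 771 and 386 CPM in sgXIST7, so the groups touched, and it was not called (0.84, adjusted p = 0.026, edgeR). In the hypoxia libraries 4 sterol and fatty acid genes were up-regulated and the median was 0.29. Genes of lipid and drug efflux were also called in 1 direction, with 4 of 15 up-regulated and a median of 0.36. Of these, ABCA1, the exporter of cholesterol to lipid-poor apolipoprotein, rose from 0.738, 0.696 and 0.23 CPM to 3.37, 6.39 and 2.35 CPM (2.88, adjusted p = 4.6e-04, edgeR), and ABCG1, its partner in sterol export, rose by 3.75 (adjusted p = 3.7e-04).

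**Figure D3:**
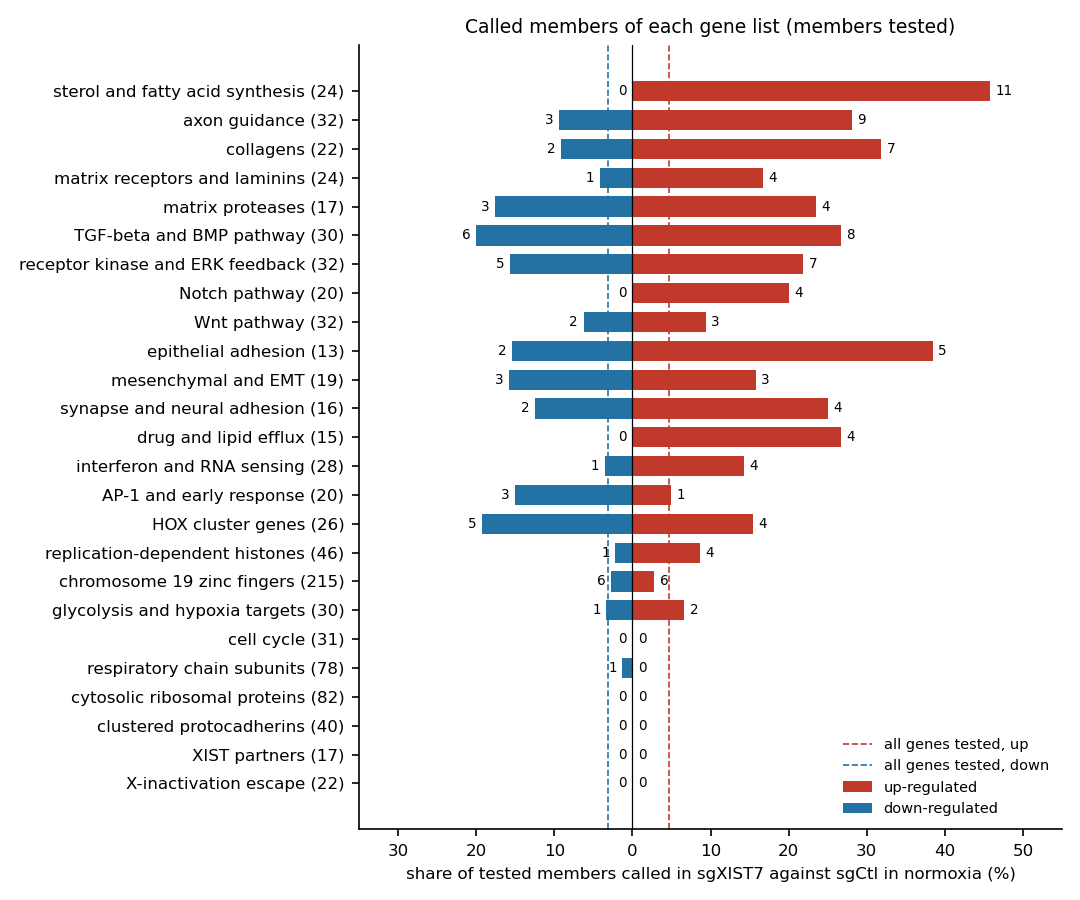
Share in percent of the tested members of 25 gene lists that were up-regulated (red, to the right) or down-regulated (blue, to the left) in sgXIST7 in normoxia; the number at each bar is the count of genes, members tested are in parentheses, and dashed lines mark the shares over all genes tested, 4.67% and 3.09%. Sterol and fatty acid synthesis has the longest bar, with 11 of 24 up-regulated and 0 down-regulated, while cell cycle, ribosomal protein, clustered protocadherin, XIST partner and escape genes have none.

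Collagens and other matrix genes were called in both directions. Shares of this and the lists below are given beside 4.67% up-regulated and 3.09% down-regulated over all genes tested. They were 31.8% and 9.09% for collagens, 16.7% and 4.17% for matrix receptors and laminins, and 23.5% and 17.6% for proteases. Of 22 collagen genes tested, 7 were up-regulated and 2 down-regulated (median 0.39), and without sgCtl replicate 3 the up-regulated ones were 4. COL12A1 and COL1A2 are described above. COL18A1, a basement membrane collagen, rose from 80.2, 65.6 and 51.1 CPM to 371, 452 and 316 CPM (2.53, adjusted p = 5.8e-07, edgeR), and COL5A1, a regulator of fibril width, from 5.64, 5.88 and 4.88 CPM to 20.3, 34 and 18.7 CPM (2.15, adjusted p = 2.3e-06, edgeR). COL1A1, the other chain of type I collagen, stayed low at 2.03, 5 and 1.35 CPM in sgXIST7 and lost its call without sgCtl replicate 3 or sgXIST7 replicate 2 (lowest value 1.59). COL4A4, a type IV basement membrane chain, fell from 3.29, 3.87 and 3.67 CPM to 0.259, 0.389 and 0.392 CPM (−3.36, adjusted p = 8.1e-06, edgeR). COL4A1 had 5, 9 and 9 counts in sgCtl and 0 in each sgXIST7 library, at least 3.63-fold lower. COL3A1, the most abundant fibrillar collagen here, differed by 0.10 (adjusted p = 0.74). Of 24 matrix receptors and laminins, 4 were up-regulated and 1 down-regulated (median 0.31). NID1, which codes for the basement membrane linker nidogen, rose from 1.41, 3.25 and 2.47 CPM to 89.8, 143 and 93.2 CPM (5.52, adjusted p = 2.3e-10, edgeR), whereas LAMB1, a laminin chain, fell from 43.7, 51.3 and 54.5 CPM to 19.5, 16.9 and 14 CPM (−1.57, adjusted p = 3.0e-06, edgeR). Of 17 matrix proteases and their inhibitors, 4 were up-regulated and 3 down-regulated, the latter 1 without sgCtl replicate 2, sgXIST7 replicate 2 or sgXIST7 replicate 3. ADAMTS1, a protease that cleaves proteoglycans, rose from 70.2, 38.8 and 27 CPM to 499, 370 and 443 CPM (3.27, adjusted p = 3.2e-06, edgeR), and its relative ADAMTS9 fell from 17, 23 and 70 counts to 4, 0 and 1, a ratio of 31.2 with an interval of 13 to 97.9. TIMP2, another protease inhibitor, rose by 2.02 (adjusted p = 4.3e-06, edgeR).

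In the TGF-beta and BMP pathway, the genes called down were ligands, and those called up were a receptor, an inhibitor, a protease and targets. These signals bind paired receptors at the cell surface and act through SMAD proteins, and the ID genes are typical targets of BMP. Of 30 genes tested, 8 (26.7%) were up-regulated and 6 (20%) down-regulated (median −0.08), and all 6 down-regulated genes were ligands. TGFB2 fell from 13.4, 7.35 and 3.04 CPM to 3, 1 and 1 counts, a ratio of 98.3 with an interval of 41.7 to 305. INHBA, a subunit of activin A, fell from 10.2, 7.35 and 3.16 CPM to 0.303, 0.333 and 0.349 CPM (−4.36, adjusted p = 2.8e-05, edgeR). BMP7 fell from 18.4, 22.2 and 23.6 CPM to 1.95, 2.55 and 2.57 CPM (−3.18, adjusted p = 1.4e-07, edgeR). BMP5 and GDF6 fell by 4.07 and 2.96, and GDF15 (−3.56) lost its call in 5 of the 6 fits without a library, with sgXIST7 replicate 2 the exception. Among the up-regulated genes, TGFBR2 (chromosome 3, 30606502 to 30694141), the type II receptor for TGF-beta, rose from 0.537, 0.773 and 0.344 CPM to 13.9, 15.4 and 13.3 CPM (4.70, SE 0.42, adjusted p = 3.1e-07, edgeR). NOG, which codes for the BMP inhibitor noggin, had 2, 0 and 1 counts in sgCtl against 112, 33 and 92, a ratio of 55.8 with an interval of 18.9 to 272. All 4 ID genes, which encode inhibitors of basic helix-loop-helix factors, were up-regulated. ID3, the most abundant, rose from 66.8, 38.3 and 27.5 CPM to 349, 239 and 309 CPM (2.76, adjusted p = 6.2e-05, edgeR), and ID1 from 50.7, 36.9 and 29 CPM to 180, 111 and 136 CPM (1.88, adjusted p = 5.8e-05, edgeR). ID2 and ID4 rose by 3.29 and 3.19, and SMAD6, an inhibitory SMAD that BMP also induces, rose by 2.61 (adjusted p = 9.5e-05, edgeR). BMP1, a protease that trims procollagens, completes the 8.

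Growth factor signalling genes were also split, with 21.9% up-regulated and 15.6% down-regulated. Of 32 genes of receptor kinases and ERK feedback, 7 were up-regulated and 5 down-regulated (median 0.07), the latter 3 without sgCtl replicate 1, sgCtl replicate 3 or sgXIST7 replicate 2. The PDGF ligands divided: PDGFC rose as given above, PDGFD went from 80, 71 and 80 counts to 0 in each sgXIST7 library, at least 36.2-fold lower, and PDGFA fell from 7.18, 7.66 and 9.93 CPM to 1.9, 1.78 and 2.18 CPM (−2.08, adjusted p = 4.0e-05, edgeR). The ERK phosphatases divided as well, since DUSP6 fell while DUSP4 rose from 2.28, 2.32 and 2.24 CPM to 26.1, 18.5 and 28.5 CPM (3.42, adjusted p = 3.5e-06, edgeR). FGFR3, a receptor for fibroblast growth factors, rose from 3.02, 3.79 and 2.99 CPM to 28.5, 32.2 and 23.4 CPM (3.11, adjusted p = 5.6e-07, edgeR). EGFR rose from 44.5, 52.9 and 37.1 CPM to 99.9, 162 and 101 CPM (1.43, adjusted p = 2.1e-04, edgeR), and its ligand EGF rose by 3.05. MET, the receptor for hepatocyte growth factor, was called down and lost that call in 4 of 6 fits without a library, with values from −1.88 to −1.05; sgCtl replicate 2 and sgXIST7 replicate 3 were the exceptions.

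Of 32 axon guidance genes, which steer cell movement in many tissues, 9 (28.1%) were up-regulated and 3 (9.38%) down-regulated (median 0.33). NRP2, a co-receptor for class 3 semaphorins and VEGF-C, rose from 1.81, 1.39 and 1.21 CPM to 80.1, 81.7 and 77.6 CPM (5.76, SE 0.38, adjusted p = 1.0e-08, edgeR). EFNA5, a membrane-bound ephrin, rose from 2.35, 1.93 and 0.574 CPM to 32.3, 36.9 and 29.6 CPM (4.37, adjusted p = 1.8e-07, edgeR). The semaphorin ligands SEMA3D and SEMA3A both fell, the latter from 43, 44 and 48 counts to 0, 0 and 1, a ratio of 191 with an interval of 33.7 to 7606. NTN1, which codes for netrin, fell from 2.68, 3.17 and 2.58 CPM to 0.389, 0.555 and 0.436 CPM (−2.60, adjusted p = 3.2e-06, edgeR). SLIT2, a ligand of ROBO receptors, was abundant at 240, 268 and 266 CPM in sgCtl and 468, 617 and 466 CPM in sgXIST7, and its call at 1.00 was lost without sgCtl replicate 1 or sgXIST7 replicate 2 (lowest value 0.86). Of 16 synapse and neural adhesion genes, 4 (25%) were up-regulated and 2 (12.5%) down-regulated (median 0.43). The latter were 1 without sgCtl replicate 3 or sgXIST7 replicate 3. NCAM1, a neural cell adhesion molecule, fell from 4.9, 5.1 and 3.21 CPM to 0.908, 0.833 and 0.741 CPM (−2.40, adjusted p = 9.7e-05, edgeR).

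Of 20 Notch pathway genes, 4 (20%) were up-regulated and none down-regulated by edgeR (median 0.24). NOTCH3, a receptor, rose from 8.18, 11.4 and 6.2 CPM to 42.2, 123 and 50.5 CPM (3.07, adjusted p = 3.8e-06, edgeR), with replicate 2 highest in both groups. The target HEY1 had 2, 2 and 2 counts in sgCtl against 51, 20 and 55, a ratio of 14.8 with an interval of 6.63 to 41.2, and MFNG, which modifies Notch receptors, rose by 2.29. HES1, another target, rose by 1.99 and lost its call without sgCtl replicate 2 (adjusted p = 0.011, edgeR). Of 32 Wnt pathway genes, 3 (9.38%) were up-regulated and 2 (6.25%) down-regulated (median −0.01). The latter were 1 without sgCtl replicate 1. WIF1, a secreted Wnt inhibitor, rose from 6.24, 2.32 and 0.861 CPM to 42.8, 37.9 and 44 CPM (3.74, adjusted p = 3.5e-05, edgeR), and SFRP1, another, fell from 13.8, 17.3 and 15.9 CPM to 5.75, 6.16 and 5.75 CPM (−1.41, adjusted p = 4.5e-04, edgeR).

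Epithelial adhesion genes leaned upward (38.5% up-regulated, 15.4% down-regulated), and mesenchymal and EMT genes were called equally in both directions (15.8% each). Of 5 keratins and mucins tested, 4 were higher (median 1.42). Of 30 epithelial adhesion genes only 13 were expressed highly enough to be tested, of which 5 were up-regulated and 2 down-regulated (median 0.75). The up-regulated genes were 3 without sgXIST7 replicate 1, and the down-regulated ones 1 without any of the 6 libraries. CDH1, E-cadherin, had at most 2 counts in each library. TJP3, a tight junction scaffold, rose from 8.72, 7.35 and 7.81 CPM to 22.6, 32.3 and 25.3 CPM (1.75, adjusted p = 2.7e-04, edgeR). OVOL2, a repressor of mesenchymal genes, had 4, 0 and 1 counts in sgCtl against 70, 41 and 56, a ratio of 23.6 with an interval of 9.91 to 73.6, while DSG2, a desmosomal cadherin, fell from 63, 40 and 17 counts to 1, 2 and 1, a ratio of 42.5 with an interval of 16.2 to 158. KRT8, a simple epithelial keratin, rose from 9.59, 8.74 and 9.07 CPM to 28.9, 43.3 and 31.9 CPM (1.92, adjusted p = 1.5e-06, edgeR), as did KRT80 by 3.29, and these were the 2 genes called of 5 keratins and mucins tested. Of 19 mesenchymal and EMT genes, 3 were up-regulated and 3 down-regulated (median 0.11). The factors that drive the transition split: SNAI2 rose from 0.47, 0.232 and 0.172 CPM to 4.02, 2.72 and 3.7 CPM (3.57, adjusted p = 6.7e-04, edgeR), ZEB2 fell from 28.1, 32.9 and 26.5 CPM to 2.03, 3 and 2.18 CPM (−3.61, adjusted p = 2.7e-08, edgeR), and TWIST1 fell from 3.22, 4.02 and 4.54 CPM to 0.303, 0.5 and 1.05 CPM (−2.65, adjusted p = 4.0e-05, edgeR). ACTA2, smooth muscle actin, rose from 51.8, 35.4 and 22 CPM to 354, 259 and 292 CPM (3.05, adjusted p = 5.0e-06, edgeR). FN1, fibronectin, fell by 1.33 and lost its call without sgCtl replicate 2 or sgXIST7 replicate 3 (adjusted p up to 0.013, edgeR). VIM, vimentin, was the most abundant of the group, with 3545, 3260 and 3634 CPM in sgCtl and 5645, 5683 and 5513 CPM in sgXIST7, a difference of 0.69 (adjusted p = 0.006, edgeR) that stayed within the threshold in normoxia.

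Of 20 AP-1 and early response genes, 1 (5%) was up-regulated (FOSL2) and 3 (15%) were down-regulated, with 14 of the 20 lower (median −0.60). FOSL1, another AP-1 subunit, fell from 43.3, 54.7 and 49.7 CPM to 21.7, 16.8 and 17.4 CPM (−1.40, adjusted p = 2.6e-04, edgeR), and EGR2, an early growth response factor, from 49, 48 and 66 counts to 2, 3 and 3, a ratio of 28.9 with an interval of 14.3 to 68. Of 28 interferon and RNA sensing genes, 4 (14.3%) were up-regulated and 1 (3.57%) down-regulated (median 0.40). The down-regulated gene, BST2 or tetherin, was the most abundant of these 5 in the controls and fell from 124, 113 and 145 CPM to 2.12, 1.94 and 1.44 CPM (−6.12, SE 0.27, adjusted p = 3.8e-11, edgeR). Up-regulated members included SAMD9L, an antiviral factor, from 4.36, 4.56 and 3.21 CPM to 15, 17.9 and 14.1 CPM (1.96, adjusted p = 3.9e-05, edgeR), and IFI44L by 2.74. Of 12 antigen presentation genes, CD74, the invariant chain of MHC class II, rose from 4, 3 and 2 counts to 130, 155 and 142, a ratio of 33.5 with an interval of 17.5 to 73.8, and HLA-B rose by 1.20 (adjusted p = 0.001, edgeR). Of 29 cell death genes, 1 (3.45%) was called in each direction, near the shares over all genes. FAS, a death receptor, rose from 23.1, 19.5 and 20.1 CPM to 149, 117 and 136 CPM (2.68, adjusted p = 4.2e-07, edgeR). The other, BCL2, had at most 12 counts in a library and lost its call without any 1 of the 6 libraries (−2.20 to −1.68). Of 11 Müllerian and ovarian lineage genes, 3 (27.3%) were up-regulated and none was down-regulated by edgeR (median 0.06), LHX9 among the former. MSLN, which codes for mesothelin, with at most 16 counts in a library, lost its call without any 1 library (2.35 to 3.95).

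HOX genes, which give cells their position along the body axis, were called in both directions. Of 26, 4 (15.4%) were up-regulated and 5 (19.2%) down-regulated (median −0.59). Without sgCtl replicate 3 the up-regulated ones were 2, and without sgCtl replicate 2, sgXIST7 replicate 1 or sgXIST7 replicate 3 the down-regulated ones were 3, 2 and 3. HOXB7 fell from 22.7, 17.2 and 18.9 CPM to 6.96, 6.22 and 6.67 CPM (−1.56, adjusted p = 4.6e-04, edgeR). Within the HOXD cluster, HOXD13 fell from 40, 23 and 47 counts to 3, 5 and 9 (−3.14, adjusted p = 8.7e-05, edgeR), while HOXD11 had 0 counts in each sgCtl library and 15, 20 and 23 in sgXIST7, at least 4.56-fold higher. Of 46 histone genes expressed in S phase, 4 (8.70%) were up-regulated and 1 (2.17%) down-regulated (median −0.19). The former were 2 without sgCtl replicate 2, sgCtl replicate 3 or sgXIST7 replicate 1. The linker histone gene H1-5 went from 198, 81 and 51 counts to 0 in each sgXIST7 library, at least 52.6-fold lower, and H2BC6 rose from 16.8, 7.35 and 2.99 CPM to 96.2, 71.3 and 91.5 CPM (3.26, adjusted p = 2.4e-05, edgeR), although reads may be shared among near-identical histone genes. A list member at 0 in a whole group lies on the same side of its list's median at its bound, so no list median depends on it.

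In several other lists few or no genes were called. Of 31 cell cycle genes, 82 cytosolic ribosomal protein genes and 40 clustered protocadherins, edgeR called none in either direction, at medians of −0.07, −0.05 and −0.26, and of the protocadherins 33 were lower. Of 78 respiratory chain subunits, NDUFB2 alone was called, down-regulated from 64.7, 50.7 and 63.5 CPM to 28.1, 21.9 and 29.1 CPM (−1.18, adjusted p = 3.0e-06, edgeR). Zinc finger genes of chromosome 19 had 6 up-regulated and 6 down-regulated among 215 (2.79% each, median −0.20), below the shares over all genes. Of 30 glycolysis and hypoxia targets, ADM was down-regulated (3.33%) and HK2 and PFKFB4 up-regulated (6.67%), near the shares over all genes (median 0.32). HK2, hexokinase 2, rose from 37, 36 and 34.4 CPM to 92.4, 109 and 105 CPM (1.51, adjusted p = 8.8e-06, edgeR). PFKFB4, a regulator of glycolysis, owed its call to sgXIST7 replicate 2, which had 52 CPM against 18.2 and 19.8 CPM in the others. Its log2 fold change fell to 0.53 without that library, and the call was also lost without any single sgCtl library. The remaining lists were short, so that a few calls made up large shares, beside 4.67% up-regulated and 3.09% down-regulated over all genes. The shares up-regulated and down-regulated were 10% and 20% for NF-kB, 7.69% and 15.4% for metal handling, and 8.33% and 16.7% for stem cell markers. They were 0% and 5% for ATF4 genes, 8% and 0% for contractile genes, and 0% and 7.69% for imprinted genes. Of 10 cytokines and chemokines of NF-kB, 1 was up-regulated and 2 were down-regulated, the latter 1 without sgCtl replicate 3, sgXIST7 replicate 1 or sgXIST7 replicate 2. Of 20 ATF4 stress genes CEBPB was down-regulated, and of 25 contractile genes ACTA2 and CCN2 were up-regulated, but CCN2 lost its call without any 1 of the 6 libraries (1.67 to 1.97). Of 13 imprinted genes GRB10, an adaptor of insulin signalling, fell by 2.84 on the log2 scale, and without sgXIST7 replicate 2 the down-regulated ones were 2. Of 13 metal-handling genes, FTL and the iron exporter SLC40A1 were down-regulated and STEAP2 was up-regulated, the up-regulated genes being 0 without sgCtl replicate 3 and 2 without sgXIST7 replicate 2. Of 12 cancer stem cell markers, 1 was up-regulated and 2 were down-regulated, the latter 1 without sgCtl replicate 3 or sgXIST7 replicate 3.

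The place of the called genes along the chromosomes was also described. Tested genes were put in order along each chromosome and cut into 598 windows of about 25, and a run was defined as neighbouring windows with medians beyond 0.3 on the same side of 0. This rule was chosen after the values were seen, and its results are a description without a test. There were 7 runs, which held 897 of 14911 placed genes (6.02%). They held 51 of the 698 up-regulated genes (7.31%) and 102 of the 461 down-regulated genes (22.1%), which leaves 647 and 359 outside. The runs were drawn from the same fold changes that gave the calls, so these shares are not read against the 6.02%. DNA copy number was not measured in these data, and its part in the runs was not tested.

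One run lay at the end of the long arm of chromosome 7, from 121.0 to 158.9 Mb. Of 170 genes tested there, 152 were lower, with a median log2 fold change of −0.85, 46 were down-regulated and 2 up-regulated. Within the run, the shift was seen from about RBM28 (from base 128297685) on. That boundary was set with these values in view, so the counts on either side of it are a description without a test. From RBM28 to the last gene tested, WDR60, 146 of 158 genes were lower, or 92.4% (median −0.89). In the 25 genes before it, 14 were lower (median −0.08). Each sgXIST7 library showed it, with medians of −0.79, −0.72 and −0.81 relative to the mean of the sgCtl libraries. In the hypoxia libraries the median of these 158 genes was −1.08, with 140 lower. In sgXIST9 it was 0.02, with 74 lower, and the direct contrast of sgXIST7 with sgXIST9 had a median of −0.93. Over the whole run, 46 genes passed the threshold as lower than in sgXIST9. Genes called in the run included EZH2 (148807383 to 148884291), the methyltransferase of Polycomb repressive complex 2, which XIST is known to act with. EZH2 had 214, 207 and 231 CPM in sgCtl and 76.3, 70.3 and 73.2 CPM in sgXIST7 (−1.57, SE 0.19, adjusted p = 1.1e-05, edgeR), against 158, 182 and 178 CPM in sgXIST9 (direct contrast −1.24, adjusted p = 3.0e-04). EZH2 was the only gene called among 17 of chromatin silencing (5.88%, against 3.09% down-regulated over all genes). CHCHD3, a mitochondrial cristae protein gene, fell furthest of those named, from 43.5, 37.8 and 36.9 CPM to 7.44, 7.22 and 6.27 CPM (−2.50, adjusted p = 9.8e-10, edgeR). NDUFB2, described above, the nuclear pore gene NUP205 (−1.16), the ubiquitin ligase scaffold CUL1 (−1.06) and the chaperone gene DNAJB6 (−1.19) lie in the same run. So does the kinase gene BRAF (−1.05), which lost its call without sgCtl replicate 2 or sgXIST7 replicate 3 (weakest value −0.91).

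For the other runs the values of both KD lines are given side by side, and both are compared with the same sgCtl libraries. On the long arm of chromosome 2, from 96.1 to 219.2 Mb, 400 of 475 genes were lower (median −0.53, with 38 down-regulated and 18 up-regulated), and the medians were −0.52 in hypoxia and −0.54 in sgXIST9. ZEB2, FN1, FAM171B, WDR75 and SLC40A1, which fell, lie in this stretch, as do NRP2 and MAP2, which rose. The HOXD genes, called in both directions, lie there too, with HOXD13 lower and HOXD11 higher. A smaller run from 224.5 to 236.6 Mb had a median of −0.60, and −0.61 in sgXIST9. On chromosome 7 from 66.7 to 75.5 Mb, 48 of 50 genes were higher and 17 were up-regulated, with medians of 0.90 in normoxia, 0.96 in hypoxia and 0.96 in sgXIST9. These include LIMK1, a kinase of the actin cytoskeleton (1.19), EIF4H, a translation initiation factor gene (1.13), and SBDS, a ribosome maturation gene (1.15). On chromosome 13 from 28.7 to 42.3 Mb the median was 0.44, with 41 of 50 genes higher, and it was −0.06 in sgXIST9. The runs on chromosomes 11 and 14 had medians of 0.47 and −0.37, and of 0.35 and −0.34 in sgXIST9.

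**Figure D4:**
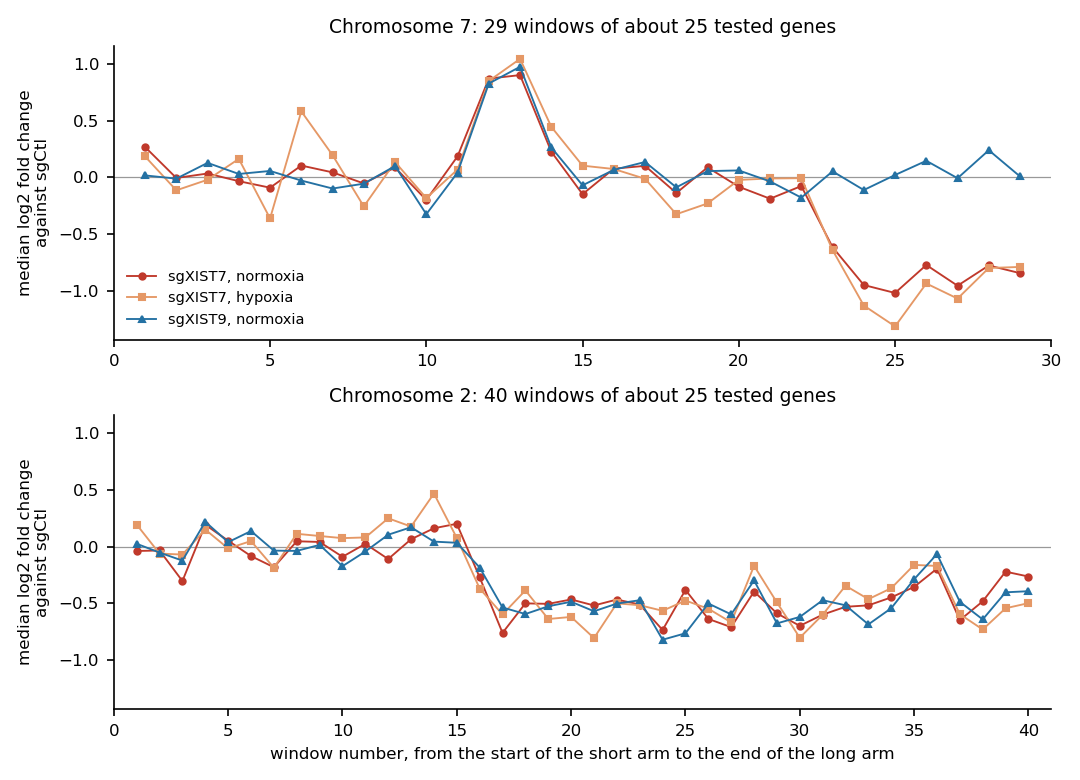
Median log2 fold change against sgCtl in windows of about 25 tested genes, numbered along chromosome 7 (upper panel) and chromosome 2 (lower panel), for sgXIST7 in normoxia (red circles), sgXIST7 in hypoxia (orange squares) and sgXIST9 in normoxia (blue triangles). From window 23 of chromosome 7 both sgXIST7 lines drop below −0.5 while sgXIST9 stays near 0, whereas windows 12 and 13 of chromosome 7 and the long arm of chromosome 2 shift alike in all 3.

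A direct contrast of sgXIST7 with sgXIST9 in normoxia tests which genes differed between the 2 KD lines. XIST itself had 29, 53.6 and 52.4 CPM in sgXIST9, against 0.216, 0.222 and 0.0436 CPM in sgXIST7. The remaining level of XIST, the guide and the clone therefore cannot be told apart here. The contrast uses the same sgXIST7 libraries that chose the called genes, so their shares are a description and are not read against the background. Of the 698 up-regulated genes, 123 (17.6%) were also higher than in sgXIST9, where 2.09% of all genes were, and 28 were lower. Of the 461 down-regulated genes, 72 (15.6%) were also lower than in sgXIST9, where 1.31% of all genes were, and 38 were higher. The contrast of sgXIST9 with sgCtl, in which 3.93% of genes were up-regulated and 3.77% down-regulated, uses the same control libraries, so its values are only given beside those of sgXIST7. LHX9 stayed at 0.268, 0.319 and 0.409 CPM in sgXIST9, and ALPK2 had at most 0.0446 CPM, so that both were higher in sgXIST7 (7.28 and 10.09, adjusted p = 1.2e-10 and 5.6e-08, edgeR). HIF1A had 226, 223 and 219 CPM in sgXIST9 (direct contrast 1.76, adjusted p = 3.2e-10, edgeR) and NRP2 had 1.79, 2.07 and 2.34 CPM (5.28, adjusted p = 2.4e-08, edgeR). NR2F2, a nuclear receptor gene of mesenchyme, had 163, 180 and 181 counts in sgCtl, 0, 1 and 2 counts in sgXIST7 and 11.2, 12.2 and 11.4 CPM in sgXIST9, close to the 10.9, 13.9 and 10.4 CPM of sgCtl (−7.75, adjusted p = 2.0e-08, edgeR). MAGED1, an X-linked gene of the MAGE family, had 124, 127 and 119 CPM in sgCtl, 7.31, 13 and 7.89 CPM in sgXIST7 and 101, 107 and 101 CPM in sgXIST9 (−3.46, adjusted p = 2.4e-08, edgeR). DUSP6 (−4.03) and BST2 (−3.98) were also lower than in sgXIST9, where they had 13.1 to 17.6 and 27.3 to 30.6 CPM. By contrast SEMA3D, ZBTB18 and KCNK2 were at or near 0 in both KD lines, with direct differences of 0.66, 0.17 and 0.18 and adjusted p of 0.91, 0.94 and 0.93 (edgeR), and PDGFC reached 101 to 106 CPM in sgXIST9 (0.31, adjusted p = 0.057).

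In 12 genes the 2 KD lines were called on opposite sides of sgCtl. TGFBR2 had 0.0446, 0.0531 and 0 CPM in sgXIST9, below its control level, and differed from sgXIST7 by 8.44 (adjusted p = 2.4e-08, edgeR). RUNX1, a transcription factor gene, had 1.01, 1.01 and 0.861 CPM in sgCtl, 3.98, 7.55 and 5.23 CPM in sgXIST7 and at most 0.106 CPM in sgXIST9 (6.57, adjusted p = 2.4e-07, edgeR). S100A10, which codes for a partner of annexin A2, had 14, 12.2 and 11.5 CPM in sgCtl, 47.3, 34.9 and 23 CPM in sgXIST7 and 1.7, 1.49 and 1.58 CPM in sgXIST9 (4.46, adjusted p = 1.0e-08, edgeR). These 3 genes and COL5A1 kept their sgXIST7 call without any single library. CHRM3, a muscarinic receptor gene, went the other way, with 1.41, 1.31 and 1.38 CPM in sgCtl, 0.216, 0.278 and 0.392 CPM in sgXIST7 and 40.8, 38.8 and 37.4 CPM in sgXIST9 (−7.01, adjusted p = 2.9e-10, edgeR). The remaining genes were PRUNE2, PLA2G3, WNT9A, CDK14, ST6GALNAC5 and the antisense gene DLGAP1-AS3, all higher in sgXIST7, and HOXB8, higher in sgXIST9. CDK14, ST6GALNAC5 and HOXB8 lost their sgXIST7 call in 6, 5 and 4 of the 6 fits without a library, with adjusted p up to 0.051, 0.047 and 0.054 (edgeR); sgXIST7 replicate 1 was the exception for ST6GALNAC5, and sgCtl replicate 3 and sgXIST7 replicate 2 for HOXB8.

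**Figure D5:**
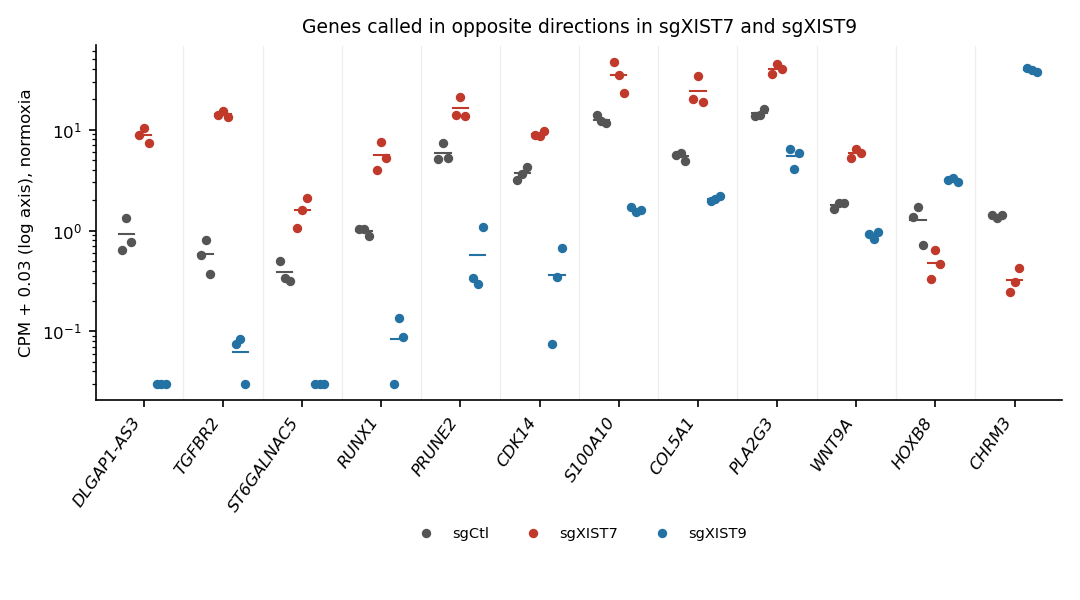
CPM with 0.03 added, on a log axis, in each normoxia library of sgCtl (grey), sgXIST7 (red) and sgXIST9 (blue) for the 12 genes called in opposite directions in the 2 KD lines; each point is a library and short lines are means. Because of how the genes were chosen, the sgCtl points lie between the sgXIST7 and sgXIST9 points, and CHRM3 and HOXB8 are the 2 in which sgXIST9 is highest.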

How the data were processed

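Total RNA was made into stranded paired-end libraries. Trimmomatic was used by the authors for trimming, HISAT2 for alignment (build hg38) and featureCounts for counting. The annotation release and strand setting are not given in the sources used here. The deposited values are the authors' raw read counts per gene; 2 broken lines were left out. TMM factors, CPM and tests were computed here with edgeR 4.0.16 (R 4.3.3): glmQLFit with robust estimation and glmQLFTest in 1 fit of 18 libraries in 6 groups, filterByExpr with a minimum count of 10, a prior count of 0.125 and Benjamini-Hochberg adjustment. P-values rest on the spread between libraries within a group, estimated over all 6 groups (12 residual degrees of freedom) and not from the compared groups alone. Folds against a group at 0 use 3 counts per library; such bounds and the 95% intervals cover counting error only. Members, lists and naming rules were chosen with earlier results of these data known. Named genes were the largest, most abundant and listed calls, calls repeated against or opposite to sgXIST9, and neighbours of XIST and the guide sites; CHCHD3, CUL1, DNAJB6, BRAF, LIMK1, EIF4H and SBDS were added after their values were seen. Deviations from the group means had correlations of 0.148, 0.379 and 0.195 between libraries of the same number, and of −0.272 to 0.133 between unlike numbers. The labels do not state that equal numbers are pairs. The main fit took no account of the number, and a block by number was run as an alternative. Sequences are from RefSeq (GRCh38.p14). Scripts were tested on simulated data. Some genes that met the naming rules are not reported here.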

Additional observations from a re-analysis of the deposited data

Results flagged for a closer look

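The following genes had sgXIST7 effects that differed from those of sgXIST9 in the direct contrast in normoxia (edgeR, log2 difference of sgXIST7 from sgXIST9). Called on opposite sides of sgCtl in the 2 KD lines were DLGAP1-AS3 (10.35), TGFBR2 (8.44), ST6GALNAC5 (7.84), RUNX1 (6.57), PRUNE2 (4.94), CDK14 (4.79), S100A10 (4.46), COL5A1 (3.58), PLA2G3 (2.87), WNT9A (2.73), HOXB8 (−2.81) and CHRM3 (−7.01). The largest differences among genes called in sgXIST7 were, on the higher side, ALPK2 (10.09), NECTIN3 (8.17), DIRAS2 (7.65), LOXL1-AS1 (7.37), LHX9 (7.28), DLGAP1-AS5 (7.22) and ROBO2 (7.09). On the lower side they were XIST (−8.11), NR2F2 (−7.75), BCRP2 (−5.50), STARD8 (−5.24), DUSP6 (−4.03), BST2 (−3.98), PSTPIP1 (−3.63), SLC7A2 (−3.53) and MAGED1 (−3.46). Of these, NECTIN3, DIRAS2, LOXL1-AS1, DLGAP1-AS3, DLGAP1-AS5, ROBO2 and ST6GALNAC5 had 0 counts in each sgXIST9 library, so the fitted size depends on the prior count. The antisense genes cannot be told apart from their partners unless counting used the strand. Against sgCtl, DIRAS2 lost its call without sgCtl replicate 1, sgCtl replicate 2, sgXIST7 replicate 1 or sgXIST7 replicate 2 (adjusted p up to 0.02, edgeR). ROBO2 lost it without sgCtl replicate 1, sgCtl replicate 2 or sgXIST7 replicate 3 (up to 0.022), and PSTPIP1 without sgCtl replicate 3, sgXIST7 replicate 1 or sgXIST7 replicate 3 (up to 0.018).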

How the results depend on the processing

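The 698 up-regulated and 461 down-regulated genes became 734 and 501 with DESeq2, 617 and 374 with a filter at a mean CPM of 1, 668 and 475 with upper-quartile scaling, and 836 and 598 at an adjusted p below 0.05. Leaving out 1 library gave 538 to 645 and 363 to 422. A fit of only the 6 libraries compared gave 680 and 455. In that fit 11 named calls were lost, among them COL1A1, FBLN1, LSS, MET, PFKFB4 and HOXB8. XIST kept its call there (adjusted p = 1.3e-04, edgeR). With the replicate number as a block there were 711 and 506, and of the named calls only MVK lost its call (pairing as described above). That fit also moved 1 list, the NF-kB cytokines and chemokines, from 1 to 2 up-regulated genes. Without genes in the chromosome runs, a count added after seeing the data, there were 647 and 359. Of 222 named genes called, 170 kept their call in every alternative, 52 lost it in at least 1 fit without a library, and 0 reversed. Over the alternatives the median of all genes stayed between −0.025 and 0.009. Depth limits genes with at most 3 counts in a group, whose folds are bounds or wide intervals. The causes of lost calls were not tested.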
